A study of Bos taurus with 30 samples.

Results

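The miRNAs described here are 7 mature miRNAs known from leukocytes and microglia, measured in the arcuate nucleus (ARC) of the hypothalamus of bull calves. They are bta-miR-142-5p, bta-miR-142-3p, bta-miR-223, bta-miR-150, bta-miR-155, bta-miR-146a and bta-miR-146b. They were chosen by name, as the rows so named among 1030 mature miRNAs, of which 863 had a read in at least 1 library. All 7 had reads in all 30 libraries, and all 7 passed the filter on low values that kept 476 miRNAs for testing. The study placed 30 Holstein-Friesian bull calves of 2 weeks of age, balanced for age, bodyweight, farm and sire, on one of 2 allowances until week 12: a high plane of nutrition (HI, 15 calves) or a moderate one (MOD, 15 calves). HI calves were offered 1.5 kg of milk replacer in 10 L per day with concentrates ad libitum, and MOD calves 0.5 kg in 4 L per day with 0.5 kg of concentrates. Both groups thus received milk replacer and concentrates, no unfed or suckled group was included, and each calf gave 1 small RNA library. The ARC receives cues on metabolic status, and the comparison of diets asks whether early life nutrition alters its miRNA profile.

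A mature miRNA is cut from 1 arm of a hairpin precursor, is loaded into an Argonaute protein and guides it to mRNAs that pair with the miRNA's seed, which lowers their translation and stability. The miR-142 precursor is transcribed almost exclusively in blood-forming cells and their descendants, microglia among them, and yields mature miRNAs from both arms. miR-223 is abundant in neutrophils and monocytes, where it restrains granulocyte activation, and miR-150 is abundant in mature lymphocytes, where it targets the transcription factor MYB. miR-155 is induced in activated macrophages, microglia and lymphocytes and favours inflammation. miR-146a is induced by NF-κB and feeds back on it by targeting the adaptor proteins TRAF6 and IRAK1. miR-146b is a closely related miRNA from another chromosome. Each of miR-150, miR-155, miR-146a and miR-146b can also be made by cells of the brain itself, and in a piece of bulk tissue fewer cells of a type and less RNA per cell cannot be told apart.

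The precursors are listed by RefSeq, in the ARS-UCD2.0 assembly, as MIR142 (gene identifier 791010), MIR223 (100313022), MIR150 (791057), MIR155 (100313006), MIR146A (100313305) and MIR146B (100313002). MIR142 overlaps TSPOAP1 and the locus LOC132342998 and has MPO, the gene of myeloperoxidase, as a neighbour. MIR223 overlaps VSIG4, the gene of a complement receptor of macrophages, and the locus LOC132344326. The other precursors overlap no listed gene, and the nearest listed neighbours are MRPL39 and NCAM2 for MIR155, PTTG1 and ATP10B for MIR146A, and CUEDC2 and C26H10orf95 for MIR146B. No positions are printed, because the deposited values rest on an older assembly, ARS-UCD1.2.

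Levels are given in CPM (reads per 1000000 reads of the library, after TMM scaling of its size), as deposited. Reads counted on miRNAs ranged from 6291376 to 8988039 in 21 shallower libraries (12 HI, 9 MOD) and from 17193358 to 21083250 in 9 deeper ones (3 HI, 6 MOD). The 9 calves with the lowest animal codes (7 HI, 2 MOD), whose libraries were all shallower, differed from the other 21 (8 HI, 13 MOD) in many miRNAs. That boundary was found from the values, and no run, date or farm is labelled for it. Neural tissue was checked with 8 neuronal miRNAs, of which miR-124a and miR-124b had the same values, and their geometric mean lay between 1060 and 4304 CPM in every library. These miRNAs do not tell the ARC from other brain regions. The geometric mean of 8 miRNAs of the pituitary, the gland below the ARC (of 10 listed, 2 did not pass the filter), ran from 13.3 to 4336 CPM and was highest in HI calf A37824, MOD calf A41971 and MOD calf A73759.

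The 7 miRNAs lay between ranks 80 and 448 of the 476 tested miRNAs by median level, so none was among the most abundant. miR-142-5p was the most abundant of the 7, with a median of 1231 CPM (951 to 1942 CPM, lowest to highest of 30 calves), and ranked 80 of 476. miR-146b had a median of 714 CPM (313 to 2410 CPM), miR-146a 265 CPM (168 to 436 CPM), miR-155 109 CPM (71.8 to 215 CPM), miR-150 102 CPM (24.9 to 187 CPM) and miR-142-3p 80.3 CPM (56.5 to 125 CPM). miR-223, the neutrophil and monocyte miRNA, was the least abundant, with a median of 1.61 CPM (0.65 to 13 CPM), and ranked 448 of 476. Its values rested on 6 to 236 reads per library with a median of 15. Each of the other 6 had at least 134 reads in every library. miR-142-5p exceeded miR-146b in 25 of 30 libraries, miR-146b exceeded miR-146a in 30 of 30, by 3.01-fold in geometric mean, and miR-146a exceeded miR-155 in 30 of 30. Neighbours below that were not separated. miR-155 exceeded miR-150 in 15 of 30 libraries, and miR-150 exceeded miR-142-3p in 19 of 30. All exceeded miR-223, which lay 38.1-fold below miR-142-3p in geometric mean on the log2(CPM + 0.25) scale, an understatement at the few CPM of miR-223.

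The 7 miRNAs also differed in how much they varied between calves. Both arms of miR-142 were among the steadier of the tested miRNAs, with a standard deviation of 0.25 on the log2 scale over 30 calves for each, which ranked 375 and 377 of 476 from the most variable. miR-146a had a standard deviation of 0.30 and miR-155 of 0.39. The others varied more, with 0.63 for miR-146b (rank 75), 0.70 for miR-150 (rank 61) and 0.93 for miR-223 (rank 30). From lowest to highest calf this was 7.70-fold for miR-146b, 7.49-fold for miR-150 and 20.0-fold for miR-223, against 2.04-fold for miR-142-5p and 2.22-fold for miR-142-3p. Counting error alone gives a standard deviation of about 0.37 on the log2 scale at the median of 15 reads of miR-223, and at most 0.0545 at the median reads of each other member. HI calf A37824, the calf with the highest pituitary mean, had both the highest miR-146b and the highest miR-155 and the lowest miR-150 of all 30 calves. MOD calf A47825 had the highest miR-150 and the lowest miR-146b.

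**Figure D1:**
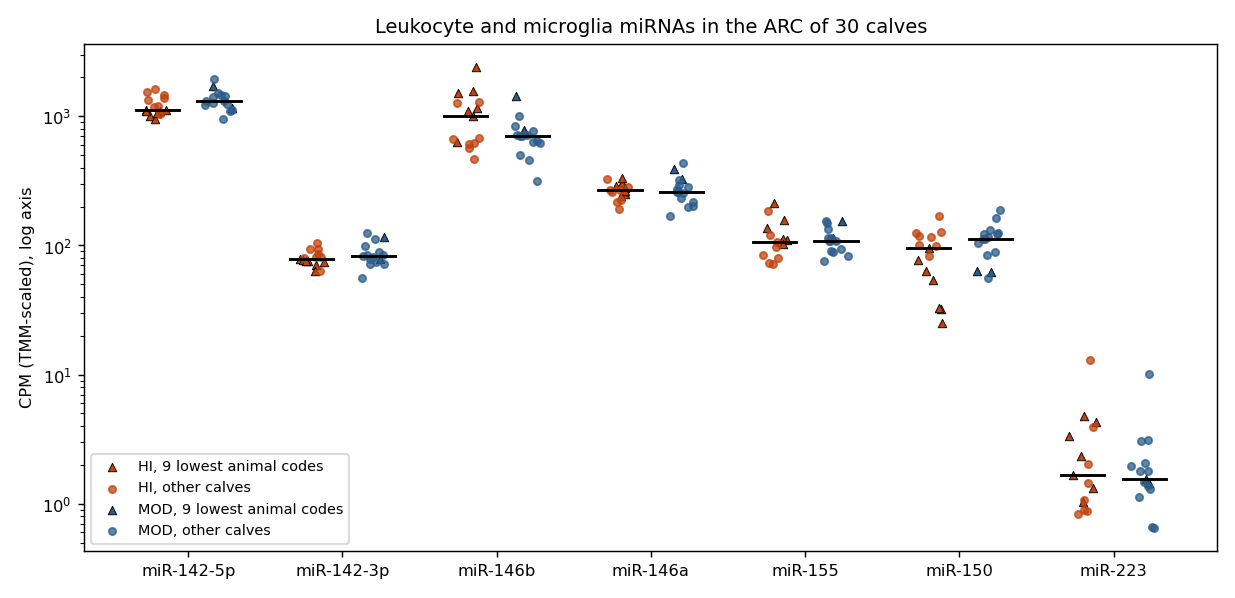
CPM on a log axis of the 7 miRNAs in each calf, by diet (red HI, blue MOD), with triangles for the 9 lowest animal codes, circles for the other calves and a bar at the median of each diet. The diets overlap for all 7, the triangles lie low for miR-150 and high for miR-146b, and 1 HI and 1 MOD calf lie above all others for miR-223.

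Between the diets, 0 of the 7 miRNAs changed, at an adjusted p under 0.1 (limma with Benjamini-Hochberg adjustment over 476 miRNAs) and a fold change above 1.5. The share called among all 476 tested was 0%. At an unadjusted p under 0.05 there was 1 of 7, against 4.41% of all tested (21 of 476), and this count was 0 with the depth class, the code class or the pituitary mean as a term. In the same comparison, edgeR's quasi-likelihood test on recovered reads of 29 calves called 0 of 7, with 1 of 7 at an unadjusted p under 0.05 against 3.56% of all tested (17 of 477). DESeq2 also called 0 of 7, and 1 of all 477, with 1 of 7 at an unadjusted p under 0.05 against 3.98% of all tested (19 of 477). The median difference of the 7, HI minus MOD, was -0.01 on the log2 scale, beside -0.00 for all tested miRNAs, with 3 higher in HI calves and 4 lower.

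miR-146b was the member with that p. In HI calves its lowest, median and highest values were 471, 1004 and 2410 CPM, and in MOD calves 313, 709 and 1442 CPM. The diets overlapped over most of this range, and 13 of 15 MOD calves lay below the HI median, while 8 of 15 HI calves lay above the MOD median and 7 below it. The mean of the HI calves was 1038 ± 525 CPM (SD, n = 15), that of the MOD calves 725 ± 258 CPM (SD, n = 15), a log2 difference of 0.44 (standard error 0.21). The unadjusted p was 0.0433 and the adjusted p 0.912 (limma, Benjamini-Hochberg), and a two-sided permutation test gave p = 0.0498. The difference was smaller within the animal code classes than over all calves. It was 0.22 among the 9 lowest codes (p = 0.639 by exact permutation) and 0.18 among the other 21 calves (p = 0.412 by exact permutation). Within the depth classes it was 0.38 in the shallower libraries (exact permutation test, p = 0.192) and 0.41 in the deeper ones (exact permutation test, p = 0.440).

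miR-150 pointed the other way. Its lowest, median and highest values were 24.9, 94.9 and 169 CPM in HI calves and 55.6, 113 and 187 CPM in MOD calves. The 3 lowest values were of HI calves A37824, A17855 and A31979, which are among the 9 lowest codes and among the 5 highest pituitary means. HI calves averaged 87.8 ± 40.9 CPM (SD, n = 15), MOD calves 110 ± 36.0 CPM (SD, n = 15), a log2 difference of -0.44 (standard error 0.24, unadjusted p = 0.0768, adjusted p = 0.912, limma). On recovered reads of 29 calves it was -0.26 both with edgeR (adjusted p = 0.993) and with DESeq2 (adjusted p = 0.987). These tests left out HI calf A31979, with 1 of the 3 lowest values, so the set of calves differed as well as the test. Among the lowest codes the HI calves differed by -0.36 (p = 0.583 by exact permutation), and among the other 21 calves by 0.02 (p = 0.907 by exact permutation). With the code class as a term in limma it was -0.07 for miR-150 and 0.19 for miR-146b.

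The 2 arms of miR-142, the pan-leukocyte and microglia miRNA, were slightly lower in HI calves, within the spread. miR-142-5p had 952, 1116 and 1634 CPM (lowest, median, highest) in HI and 951, 1307 and 1942 CPM in MOD calves, a log2 difference of -0.14 (standard error 0.09, adjusted p = 0.912, limma). For miR-142-3p these values were 63.3, 78.9 and 105 CPM in HI and 56.5, 83.0 and 125 CPM in MOD calves, a difference of -0.10 (standard error 0.09, adjusted p = 0.982, limma). Within the lowest codes miR-142-5p was lower in all 7 HI calves (952 to 1116 CPM) than in both MOD calves (1152 and 1714 CPM), with p = 0.0278, the smallest that an exact permutation test allows for 7 against 2. That p was unadjusted and the only value under 0.05 in the within-class tests of the 7 miRNAs. The class was found from the values, and the share of all tested miRNAs separated likewise was not computed. Within the other 21 calves the difference was 0.03 (exact permutation test, p = 0.790).

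miR-155, the miRNA of activated macrophages and lymphocytes, averaged 117 ± 40.9 CPM in HI calves and 113 ± 25.1 CPM in MOD calves (SD, n = 15 each), and miR-146a 267 ± 39.1 against 274 ± 72.4 CPM. Their log2 differences were 0.02 (standard error 0.14) and -0.01 (standard error 0.11), and for each the sign turned under some other settings. miR-146a was at -0.36 within the lowest codes (p = 0.0556 by exact permutation) and -0.01 within the other 21 calves (p = 0.945 by exact permutation), and miR-155 at -0.03 (p = 0.861 by exact permutation) and -0.13 (p = 0.428 by exact permutation). miR-223 had 0.83, 1.66 and 13 CPM (lowest, median, highest) in HI calves and 0.65, 1.56 and 10.1 CPM in MOD calves, a log2 difference of 0.21 (standard error 0.33, adjusted p = 0.982, limma). With 1 calf left out, the difference of miR-223 ran from 0.03 without HI calf A42931 to 0.38 without MOD calf A41971. It was -0.10 in the shallower libraries (exact permutation test, p = 0.803) and 0.96 in the deeper ones (exact permutation test, p = 0.310).

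**Figure D2:**
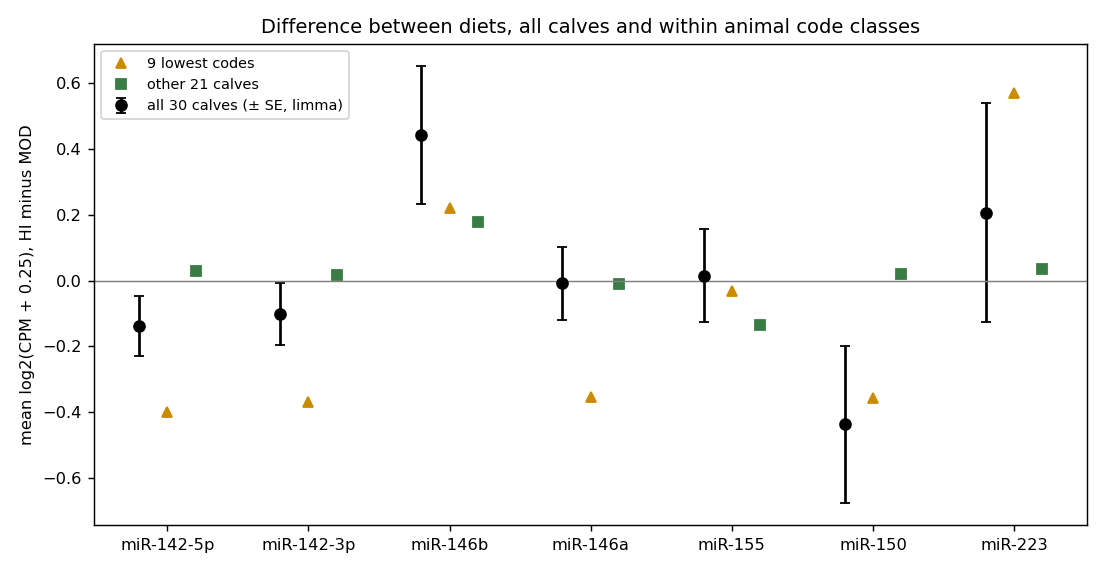
Difference in mean log2(CPM + 0.25), HI minus MOD, for the 7 miRNAs over all 30 calves (black, bars are 1 standard error from limma) and within the 9 lowest animal codes and the other 21 calves (triangles and squares, no error drawn). Over all calves miR-146b lies at 0.44 and miR-150 at -0.44, and within the other 21 calves they lie at 0.18 and 0.02.

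Within a library, 3 ratios were compared between the diets. The ratios themselves are free of its scaling, and their log2 differences, formed on log2(CPM + 0.25), are nearly so except for miR-223 with its few CPM. The ratio of miR-142-5p to miR-142-3p had a median of 15.1 and ran from 12.8 to 19.3, so the 5p arm dominated in every calf, and its log2 difference between diets was -0.04 (permutation test, p = 0.437, adjusted p = 0.437). The ratio of miR-146b to miR-146a had a median of 2.96 and ran from 1.21 in MOD calf A47825 to 7.18 in HI calf A37824. It was 0.45 higher on the log2 scale in HI calves (permutation test, p = 0.0418, adjusted p = 0.125 over 3 ratios), which did not pass the threshold of 0.05. Without HI calf A92928 the adjusted p was 0.0464 and the difference 0.53. This was the only such run to pass: over the 3 ratios, 89 of 90 runs with 1 calf left out kept their direction and their side of the threshold. Within the code classes the difference was 0.58 in the lowest codes (p = 0.222 by exact permutation) and 0.19 in the others (p = 0.466 by exact permutation). The ratio of the lymphocyte miRNA miR-150 to the myeloid miRNA miR-223 ran from 5.51 in MOD calf A41971 to 249 in MOD calf A61965, with a median of 60.5 and a log2 difference of -0.65 (permutation test, p = 0.198, adjusted p = 0.297). It was -0.93 in the lowest codes (p = 0.333 by exact permutation), -0.01 in the other 21 calves (p = 0.981 by exact permutation), -0.30 in the shallower libraries (p = 0.613 by exact permutation) and -1.06 in the deeper ones (p = 0.369 by exact permutation).

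For the depth class, with diet in the limma model, 0 of 7 passed an adjusted p of 0.1 (0% of all tested), and 1 of 7 had an unadjusted p under 0.05, against 5.04% of all tested (24 of 476). That 1 was miR-150, with 131 ± 36.1 CPM (SD, n = 9) in the deeper and 85.4 ± 33.1 CPM (SD, n = 21) in the shallower libraries, a log2 difference of 0.63 (standard error 0.25, unadjusted p = 0.0165, adjusted p = 0.783, limma). The code class was not in that model. The 9 lowest codes, with a median of 62.3 CPM for miR-150, were all among the shallower libraries, so this difference does not separate depth from code class. The animal code class gave 3 of 7, against 28.6% of all tested (136 of 476). With edgeR on reads of 29 calves it gave 4 of 7, against 125 of 477 of all tested, miR-146a included (log2 difference 0.30, adjusted p = 0.0911, edgeR). As the class was found from the values, these are descriptions. miR-150 was lower in the lowest codes (log2 difference -1.10, adjusted p = 0.000132, limma), with 24.9, 62.3 and 94.9 CPM (lowest, median, highest) against 55.6, 117 and 187 CPM in the others. Among HI calves alone it had 24.9 to 94.9 CPM in the 7 lowest codes and 82.3 to 169 CPM in the other 8. miR-146b was higher by 0.77 (adjusted p = 0.00875, limma), with 628, 1167 and 2410 CPM against 313, 664 and 1282 CPM. miR-155 was higher by 0.38 (adjusted p = 0.0751, limma). With library size only as the scaling, the median of all tested miRNAs shifted from -0.04 to -0.32. Under that scaling 4 of 7 were called, against 49.4% of all tested (235 of 476). miR-150 at -1.40 and miR-146b at 0.47 were called in the same directions, and miR-155 at 0.08 was no longer called, although relative to the median of all tested it stood at 0.40, against 0.41 under the deposited scaling. miR-142-5p at -0.49 and miR-142-3p at -0.38 were then called, the latter close to the shifted median of all tested miRNAs.

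The levels were also compared with the pituitary mean. Its slope in limma, with diet in the model, was read as a result of its own only after the data were seen. At an adjusted p under 0.1 it gave 4 of 7, against 63.2% of all tested (301 of 476), a share close to this background, and without HI calf A37824 it gave 4 of 7, against 55.9% of all tested. Per doubling of the pituitary mean the log2 level was lower by 0.16 for miR-150 (slope -0.16, adjusted p = 0.000106, limma) and higher by 0.10 for miR-155 (adjusted p = 7.64e-05, limma). It was higher by 0.14 for miR-223 (adjusted p = 0.0249, limma) and by 0.04 for miR-146a (adjusted p = 0.0364, limma). For miR-146b the slope was 0.07 (adjusted p = 0.119, limma), and for the arms of miR-142 it was 0.0044 for 5p (adjusted p = 0.844, limma) and 0.02 for 3p (adjusted p = 0.397, limma). Within the other 21 calves the slope was -0.09 for miR-150 (adjusted p = 0.00392, limma), 0.08 for miR-155 (adjusted p = 0.0126, limma) and 0.01 for miR-146b (adjusted p = 0.883, limma). With library size only it gave 3 of 7, against 64.5% of all tested, and miR-146a was no longer called (slope 0.00, adjusted p = 0.895, limma). The median slope of all tested then moved from -0.01 to -0.05, and relative to it miR-146a was at 0.05 under both scalings. With edgeR on reads of 29 calves it gave 5 of 7, against 62.5% of all tested, miR-142-3p included (slope 0.03, adjusted p = 0.0906, edgeR). Whether pituitary tissue had a part in these values was not tested.

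Relations between the miRNAs were computed over the 30 calves on log2(CPM + 0.25), for the 21 pairs and for each miRNA with the geometric mean of the erythroid miRNAs miR-451, miR-144 and miR-486. Values of a library share its scaling and dissection. Of these 28 relations, 8 passed an adjusted p of 0.05 with Pearson's r (permutation tests, Benjamini-Hochberg over 28), 6 of them positive. With library size only as the scaling, 21 of 28 kept their sign. Of the 8, 3 were to be reported by plan beside the erythroid relations, and the 4 of miR-223 with miR-155, miR-150 with miR-155 and miR-146b, and miR-155 with miR-146b are named because they passed.

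The 2 arms of miR-142 rose and fell together. Pearson's r was 0.88 (permutation p = 1e-05, the smallest possible, adjusted p = 0.00014) and Spearman's rho was 0.84 (adjusted p = 0.00028). r was 0.82 when the 2 calves farthest from the median were left out. It was 0.89 in the shallower libraries, 0.84 in the deeper ones, 0.94 in the lowest codes and 0.88 in the others. The top calf was MOD calf A57867 for both arms (1942 and 125 CPM), and the bottom one was MOD calf A38765 for both (951 and 56.5 CPM). Correlations with the other leukocyte miRNAs were lower. miR-142-3p had r = 0.05 with miR-223 (adjusted p = 0.834, permutation test), 0.16 with miR-150 (adjusted p = 0.528), 0.31 with miR-155 (adjusted p = 0.208) and 0.51 with miR-146a (adjusted p = 0.0153). With library size only, these were -0.18, 0.61, 0.10 and 0.59, so the value with miR-150 rested on the scaling. For miR-142-3p with miR-146a, rho was 0.43 (adjusted p = 0.0757), r without the 2 farthest calves was 0.48, and r was 0.46 in the shallower libraries, 0.61 in the deeper ones, 0.78 in the lowest codes and 0.60 in the others.

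miR-150 ran against miR-146b and miR-155. With miR-146b r was -0.71 (adjusted p = 0.00056, permutation test) and rho -0.64 (adjusted p = 0.00261). Without the 2 farthest calves r was -0.63. It was -0.66 in the shallower libraries, -0.77 in the deeper ones, -0.60 in the lowest codes, -0.35 in the other calves and -0.48 with library size only. With miR-155 r was -0.64 (adjusted p = 0.00098, permutation test), rho -0.54 (adjusted p = 0.0141) and r without the 2 farthest calves -0.48. It was -0.78 in the shallower libraries, -0.65 in the deeper ones, -0.79 in the lowest codes, -0.46 in the other calves and -0.44 with library size only. The direction was thus negative for both pairs in each class and scaling computed, while within the other 21 codes the pair with miR-146b had a permutation p of 0.124.

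The inflammation-induced miR-155 and miR-146a had r = 0.55 (adjusted p = 0.00812, permutation test) and rho = 0.51 (adjusted p = 0.0269). r was 0.56 without the 2 farthest calves, 0.65 in the shallower libraries, 0.35 in the deeper ones, 0.48 in the lowest codes and 0.48 in the others. With library size only it was 0.12 (permutation p = 0.516), so this relation rested on the scaling. miR-155 with miR-146b (r = 0.48, adjusted p = 0.0258, permutation test, rho = 0.41) fell to 0.26 without the 2 farthest calves and to 0.22 with library size only. It was 0.53 in the shallower libraries, 0.44 in the deeper ones, 0.62 in the lowest codes and 0.18 in the others. The 2 miR-146 miRNAs, from separate precursors, had r = 0.28 (adjusted p = 0.247, permutation test), rho = 0.32 and r = -0.01 with library size only. The 10 remaining pairs had r between -0.38 and 0.41, with no adjusted p under 0.0724 (permutation tests). At the top of that range, r of miR-142-5p with miR-150 was 0.41, and 0.75 with library size only (permutation p = 1e-05, the smallest possible), so it too rested on the scaling.

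miR-223 moved with the erythroid miRNAs. r with their mean was 0.79 (permutation p = 1e-05, the smallest possible, adjusted p = 0.00014) and rho was 0.66 (adjusted p = 0.00168). Without the 2 calves farthest from the median of miR-223 r was 0.57, and with library size only it was 0.70. It was 0.73 in the shallower libraries, 0.89 in the deeper ones, 0.86 in the other 21 calves and 0.35 within the lowest codes (exact permutation test, p = 0.360, n = 9). HI calf A42931 and MOD calf A41971 were first and second for miR-223, with 13 and 10.1 CPM. They rested on 236 reads, or 11.2 per 1000000 reads of that library (exact 95% interval 9.81 to 12.7), and on 61 reads, or 7.90 per 1000000 (exact 95% interval 6.04 to 10.2). The lowest calf, MOD calf A61965, had 12 reads, or 0.69 per 1000000 (exact 95% interval 0.36 to 1.21). The intervals cover counting error only. The same 2 calves had the highest erythroid means, 1251 and 1098 CPM against a median of 425 CPM over 30 calves. They were first and second for miR-451 (1588 and 1232 CPM) and held the top 2 places for miR-144 (41.0 and 42.9 CPM), but ranked 12 and 26 for miR-486. Their pituitary means, 722 and 3855 CPM, and smooth muscle means (miR-143 and miR-145), 14427 and 20960 CPM, were also above the medians of 36.0 and 7752 CPM. The part of blood left in the tissue was not tested. The erythroid mean overlapped between the diets, with 255, 424 and 1251 CPM (lowest, median, highest) in HI and 281, 426 and 1098 CPM in MOD calves.

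For the other 6 miRNAs no relation with the erythroid mean passed the threshold over the 30 calves. r ran from -0.10 for miR-150 to 0.36 for miR-155 (adjusted p = 0.128, permutation test), with 0.25 for miR-142-5p, 0.16 for miR-142-3p, 0.27 for miR-146a and -0.02 for miR-146b. For miR-155 it differed between classes, with 0.60 in the other 21 calves (permutation p = 0.00375), -0.75 in the lowest codes (exact permutation p = 0.0208), 0.66 in the deeper libraries (exact permutation p = 0.0476), 0.17 in the shallower ones and 0.02 with library size only. miR-223 and miR-155 had r = 0.56 (adjusted p = 0.00622, permutation test) and rho = 0.45 (adjusted p = 0.0607), and r fell to 0.43 without the 2 farthest calves. It was 0.44 in the shallower libraries, 0.76 in the deeper ones, 0.15 in the lowest codes, 0.70 in the others and 0.39 with library size only.

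**Figure D3:**
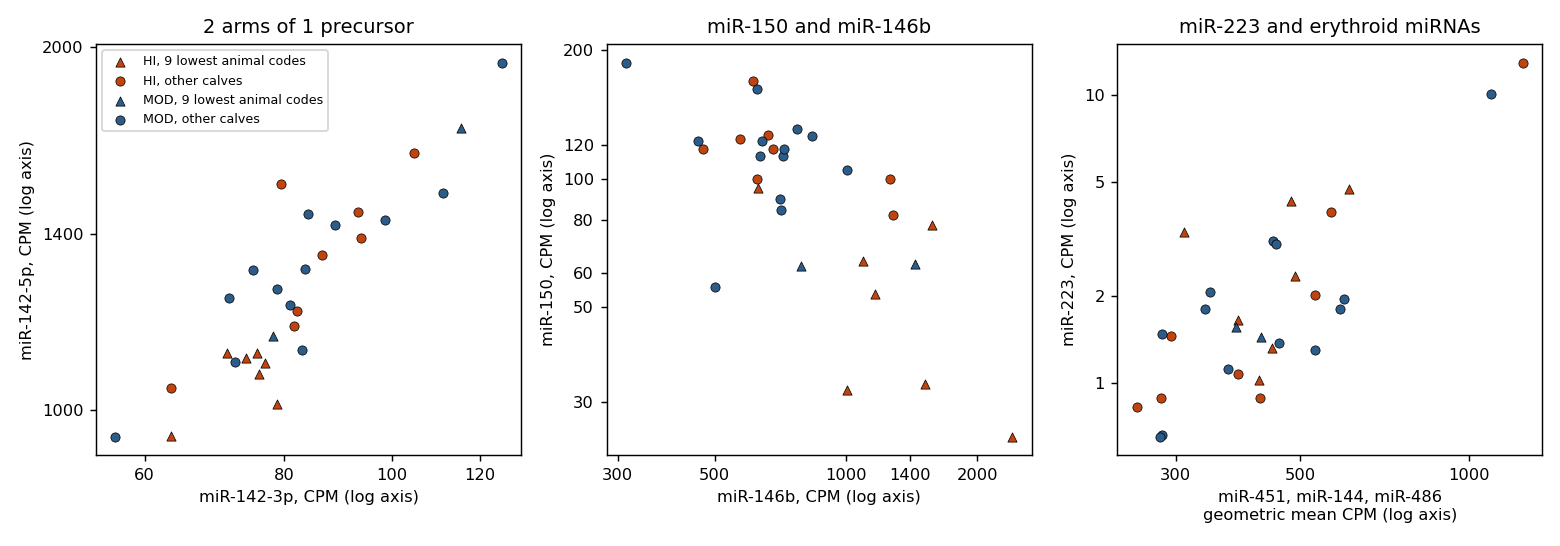
Levels of pairs of measures in each calf, CPM on log axes, with diet by colour and triangles for the 9 lowest animal codes. The arms of miR-142 lie along a line (r = 0.88), miR-150 falls as miR-146b rises (r = -0.71) with the lowest codes at the lower right, and HI calf A42931 and MOD calf A41971 lie at the top right for miR-223 against the erythroid mean (r = 0.79).

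**Figure D4:**
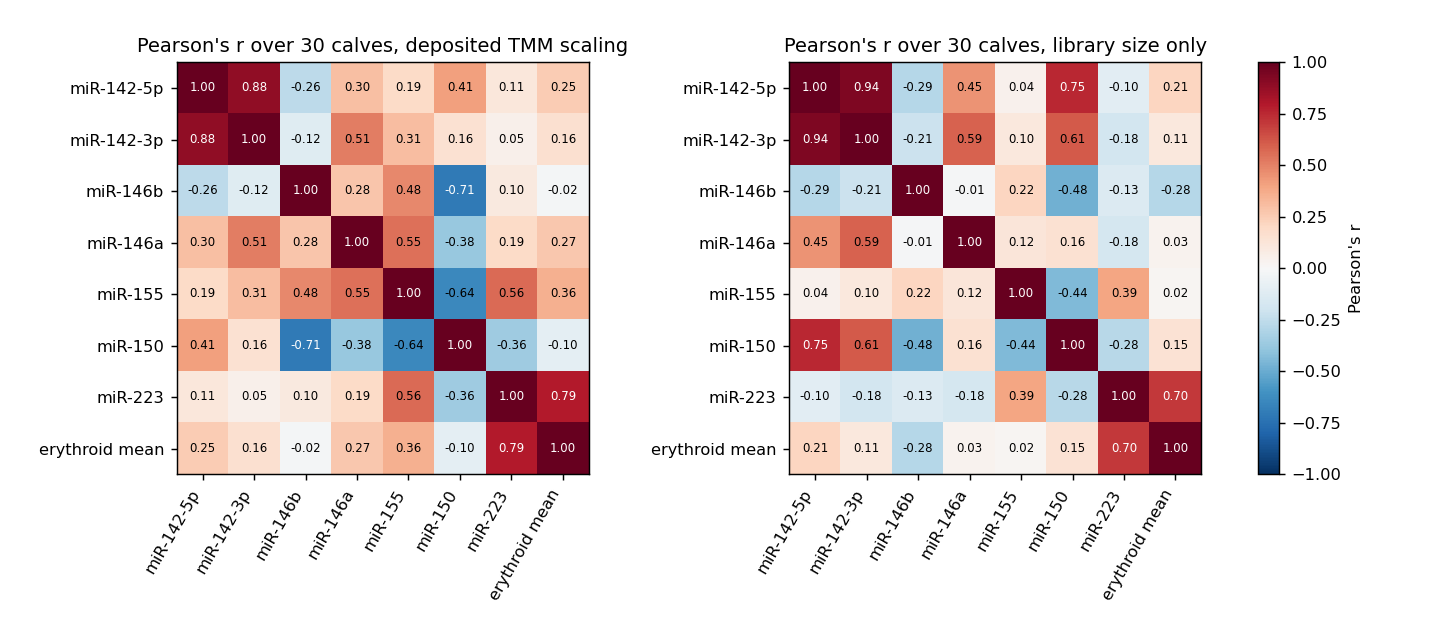
Pearson's r over 30 calves between the 7 miRNAs and the erythroid mean, under the deposited TMM scaling and with library size only, from blue (-1) to red (1). The miR-142 arms and miR-223 with the erythroid mean stay above 0.70 in both panels, while miR-155 with miR-146a is 0.55 in the left panel and 0.12 in the right, and miR-142-3p with miR-150 is 0.16 and 0.61.

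For each of the 7, the most alike of 469 other tested miRNAs were found by Spearman's rho over the 30 calves. These are descriptions, since libraries share their scaling and dissection. miR-223 was most like miR-140 and miR-144 (rho 0.64 each) and miR-451 (0.61), and so 2 of its 3 were erythroid miRNAs. miR-150 was most like miR-1249 (0.84), miR-138 (0.83), a neuronal miRNA, and miR-885 (0.79). In HI calf A37824, with the lowest miR-150, miR-138 and miR-1249 were also the lowest of all 30 calves. miR-155 was most like miR-143 (0.83), a miRNA of smooth muscle, and then miR-2285dd (0.81) and miR-2285da (0.80), whose values nearly coincide and whose reads may be shared between family members. The arms of miR-142 both had miR-30f first (0.60 for 5p, 0.55 for 3p) and miR-345-3p among their 3, with miR-497 (0.53) for 5p and miR-2285bf (0.49) for 3p. miR-146a was most like miR-532 (0.66), let-7i (0.62) and miR-24-3p (0.62), and miR-146b like miR-99b (0.60), miR-100 (0.56) and miR-1271 (0.55).

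Of 25 other miRNAs listed as immune or inflammation responsive, 24 were in the table and tested, and miR-511 was not analysed here. Between the diets 0 of 24 changed, beside 0% of all tested, 14 were higher and 10 lower in HI calves, and their median log2 difference was 0.02, beside -0.00 for all tested. The 1 with an unadjusted p under 0.05 was miR-342, a miRNA of B cells and macrophages, at -0.27 (standard error 0.12, unadjusted p = 0.0292, adjusted p = 0.912, limma). The highest difference was that of miR-99b at 0.29 (standard error 0.17, adjusted p = 0.912, limma). Their median levels ran from 18.8 CPM for miR-424-3p to 61582 CPM for miR-181a, which is also made by neurons. miR-21-5p, induced in many inflamed tissues, had 4107 to 10346 CPM and a difference of -0.00 (standard error 0.12, adjusted p = 0.993, limma).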

How the data were processed

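Small RNA libraries of the ARC of 30 calves were analysed, with diet taken from the labels. The members and lists were chosen with earlier results of these data known. The authors trimmed and size-selected reads, removed other short RNAs and counted known bovine miRNAs with miRDeep2 against ARS-UCD1.2. The submitters' notes name FastQC 0.11.8, cutadapt 2.6, R 3.4 and edgeR 3.5. The labels name a stranded RNA kit and the paper's methods a small RNA kit. The signal values the authors deposited are decimals in the form of CPM over TMM-scaled library sizes, with totals per library between 825695 and 1429908. Reads were recovered from the worth of 1 read in each library, and 94.5% to 97.9% of values under 200 reads came out whole within 0.01. Count tests used 29 calves, without HI calf A31979: of its values of up to about 20.5 reads, 94.8% were whole within 0.1, under the 95% required, against at least 95.6% in every other library.

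Filtering used filterByExpr defaults. Values as log2(CPM + 0.25) were tested with limma (two-sided, Benjamini-Hochberg, adjusted p under 0.1 and fold change above 1.5), which understates changes of miRNAs with few reads. Permutation tests used 100000 resamples or were exact. Alternatives were library size only, DESeq2 size factors, no filter, edgeR and DESeq2 on recovered reads, a pseudocount of 1 CPM, terms for depth class, code class, erythroid and pituitary means, and leaving out each calf. Named miRNAs are the 7 members, the 3 most alike to each, the erythroid miRNAs and, of the related list, the ends of level, the most different and, chosen after values were seen, miR-21-5p and miR-342. Lists for endothelial cells, smooth muscle, oligodendrocytes, and choroid plexus and ependyma were measured too. The rule on shared seeds was not run. The code was tested on simulated data. A floor of 3 reads is worth 0.138 to 0.558 CPM. Tools were limma 3.58.1, edgeR 4.0.16 and DESeq2 1.42.0 in R 4.3.3, and scipy 1.17.1 in Python 3.11.15, numpy 2.4.6 and matplotlib 3.10.9.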

Additional observations from a re-analysis of the deposited data

How the results depend on the processing

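No paired analysis was possible because each calf belongs to 1 diet and the labels pair no calves across diets. Of 70 values of the 7 diet differences under alternatives, 66 kept their direction and their side of the threshold, and none passed it. The difference for miR-155, 0.02, turned to -0.0276 with library size only, -0.11 with the code class as a term and -0.0372 with the pituitary mean as a term, and ran from -0.0523 to 0.0605 with each calf left out. That for miR-146a, -0.01, was 0.0046 with the depth class as a term and ran from -0.0559 to 0.0424 with each calf left out. The number of miRNAs called between the diets, 0, was 1 with DESeq2 on recovered reads of 29 calves and ran from 0 to 1 with each calf left out (1 without MOD calf A97854 or HI calf A77860), and 0 of the 7 were called in each. The 1 of 7 at an unadjusted p under 0.05 was 0 without any 1 of 13 calves, 1 without any 1 of 16 and 2 without HI calf A47858. The difference of the miR-142 arm ratio was 0.10 in the deeper libraries. That of the miR-146 ratio ran from 0.37 to 0.53 with each calf left out. The causes were not tested.

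The 8 relations past the threshold were 5 in the shallower libraries, 3 in the deeper ones, 0 in the lowest codes and 5 with Spearman's rho. In the other 21 codes 6 passed, of which 4 were among the 8 and the other 2 were miR-155 with the erythroid mean and with miR-142-5p. Under library size only, 8 passed, of which 5 were among the 8 of the deposited scaling. The classes hold fewer calves. r of miR-142-3p with miR-223 was -0.18 with library size only, -0.0151 in the shallower libraries, -0.40 in the lowest codes and -0.0207 as rho. With miR-150 it was -0.58 in the deeper libraries and -0.12 in the other 21 codes. For the miR-146 pair it was -0.0102 with library size only. With the erythroid mean, r in the lowest codes was -0.0409 for miR-142-5p, -0.16 for miR-142-3p, 0.41 for miR-150, -0.75 for miR-155 and -0.49 for miR-146a. It was 0.15 for miR-150 with library size only, and for miR-146b it was 0.0853 without the 2 farthest calves, 0.54 in the deeper libraries, 0.00778 in the other codes and 0.0394 as rho. The depth class difference was 0.25 for miR-223 with edgeR on reads and 0.0030 for miR-155 with library size only. The code class difference was -0.12 for miR-223 and -0.0443 for miR-146a with library size only, and -0.39 for miR-223 with edgeR. The pituitary slope with library size only was -0.0372 for miR-142-5p and -0.0244 for miR-142-3p.

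Depth limits miR-223, whose values rested on 6 to 236 reads. With library size only the medians of all tested miRNAs moved too, from -0.00 to -0.04 for diet, from -0.04 to -0.32 for the code class and from -0.01 to -0.05 for the pituitary slope. Relative to these medians, the differences and slopes that turned sign under that scaling kept their sign: miR-155 for diet (0.02 under both) and for the depth class (-0.04 under both), miR-223 (0.17 and 0.20) and miR-146a (0.29 and 0.28) for the code class, and miR-142-5p (0.01 under both) and miR-142-3p (0.02 under both) for the pituitary slope.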

Other observations

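miRNA lists of other cell types were measured over the 30 calves. The endothelial mean (miR-126-5p and miR-126-3p, the miRNA of vessel walls) ran from 3805 to 9163 CPM, with medians of 5760 CPM in HI and 6345 CPM in MOD calves. The oligodendrocyte mean (miR-219-5p and miR-338) ran from 261 to 3083 CPM, and the choroid plexus and ependyma mean from 16.3 to 340 CPM. Between the diets 0 miRNAs of these 3 lists were called by limma with Benjamini-Hochberg adjustment, with 0 at an unadjusted p under 0.05. Of the smooth muscle list 0 of 2 were called, both were lower in HI calves, and miR-145 was at -0.46 on the log2 scale (standard error 0.16, unadjusted p = 0.00797, adjusted p = 0.878, limma). Of the pituitary list 0 of 8 were called and 8 of 8 were higher in mean in HI calves (235 of 476 of all tested were), with a median log2 difference of 0.64. The standard error was 1.29 for miR-200a at 0.89, and for miR-375 the HI median was below the MOD median (652 and 821 CPM). Of the neuronal list 0 of 8 were called and 7 of 8 were lower in mean in HI calves (241 of 476 of all tested were), with a median of -0.11. Among those 7, miR-124a and miR-124b had the same values and so are 1 measurement. In the pituitary and neuronal lists, 0 had an unadjusted p under 0.05 by limma. HI calf A37824, with the highest miR-146b and miR-155 and the lowest miR-150, had the lowest oligodendrocyte mean (261 CPM) and the lowest neuronal mean (1060 CPM) of all 30 calves. The part of these cells in the levels of the 7 miRNAs was not tested.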
